A study of Rattus norvegicus with 25 samples.

Results

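The miR-181 family was examined in cauda epididymal sperm of male Sprague-Dawley rats, as every row of the deposited miRNA table whose name begins with rno-miR-181a, rno-miR-181b, rno-miR-181c or rno-miR-181d, both arms included. 9 of the 562 rows belonged to the family. The 25 small RNA libraries, labelled as biological replicates, came from F0 males that had self-administered saline or morphine intravenously. Sperm was taken either at the end of self-administration, from 7 saline (F0_SAL) and 7 morphine (F0_MOR) males, or after 90 days of abstinence, from 5 saline (F0_ABS-SAL) and 6 morphine (F0_ABS-MOR) males. All males, saline controls included, had undergone self-administration, and abstinent males were older by the time sperm was collected. A sequencing or extraction batch was not given in the sources used here, so that age, time since self-administration and batch cannot be told apart between the timepoints. Libraries held 1032386 to 3203211 miRNA counts, and are named below by the letters of the count columns. Checked against their label of mature sperm, a list of 12 male germ cell miRNAs led by rno-miR-34c-5p summed to between 199012 and 767728 CPM (counts scaled by TMM to a common library total), while the muscle list, the next highest, summed to between 13027 and 81492 CPM.

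MicroRNAs are short RNAs cut from a hairpin, and either arm of the hairpin (5p or 3p) can be loaded onto an Argonaute protein, where bases 2 to 8, the seed, find sites in target mRNAs. The miR-181 family is made from 3 pairs of genes that lie side by side, and its strands are best known from developing T cells, where miR-181a sets the sensitivity of the antigen receptor, and from vessel walls and brain. In sperm, miRNAs come from late germ cell stages and are also taken up from the epididymal epithelium during transit. All 9 strands had a mature sequence in RefSeq (rat assembly GRCr8). The 4 strands of the 5p arms are shown first because they carried most of the family's counts, with the seed in capitals.
rno-miR-181a-5p: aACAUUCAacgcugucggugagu
rno-miR-181b-5p: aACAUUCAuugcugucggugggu
rno-miR-181c-5p: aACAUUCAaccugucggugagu
rno-miR-181d-5p: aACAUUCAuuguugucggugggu

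The 5p strands had 1 common seed, and 0 of the other mature rat miRNAs among the 693 names in the RefSeq table had it. Counted from 1 at the 5′ end, miR-181b-5p differed from miR-181d-5p by the single substitution C12U and from miR-181a-5p, read from miR-181a-5p, by A9U, C10U and A21G. miR-181c-5p, with 22 bases, was 1 edit away from miR-181a-5p, with 23. The authors' alignment allowed a mismatch, so that counts of miR-181b-5p and miR-181d-5p may have been exchanged. Both were therefore also fitted as 1 summed feature.

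The same miR-181a-5p strand is encoded by Mir181a2 at chr3:43025601-43025623 and by Mir181a-1 at chr13:52037081-52037103, all on the plus strand of GRCr8. Mir181b1, the source given for miR-181b-5p at chr13:52037263-52037285, lies beside Mir181a-1 within the lncRNA gene LOC108352541. Mir181a2 lies beside Mir181b2 and overlaps Nr6a1, the gene of the germ cell nuclear factor, and the lncRNA gene LOC120101539. The third pair, Mir181c and Mir181d on chromosome 19, has Nanos3, a gene of germ cell maintenance, Zswim4 and the Mir23a, Mir27a and Mir24-2 cluster within 50000 bases. The hairpins of this pair are given because the counts of their arms differed so much in sperm, with the mature strands in capitals.
Mir181c, chr19:40888291-40888396: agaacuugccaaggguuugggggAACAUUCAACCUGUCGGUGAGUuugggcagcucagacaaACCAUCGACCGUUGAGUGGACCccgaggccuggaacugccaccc
Mir181d, chr19:40888474-40888556: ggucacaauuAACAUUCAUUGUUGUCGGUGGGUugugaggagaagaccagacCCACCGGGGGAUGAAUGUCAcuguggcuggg

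The 3p strands are shown because their abundance was so uneven. The miR-181a-1-3p and miR-181c-3p strands, which had the same seed and were told apart by U16G and U19G, were found in nearly every library, and the other 3p strands were scarce.
rno-miR-181a-1-3p: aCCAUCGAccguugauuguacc
rno-miR-181c-3p: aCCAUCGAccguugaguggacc
rno-miR-181a-2-3p: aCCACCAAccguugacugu
rno-miR-181b-1-3p: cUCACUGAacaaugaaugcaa
rno-miR-181d-3p: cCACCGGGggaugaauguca

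The family was a minor component of sperm miRNA. Its 9 rows summed to between 256 and 1348 counts per library, which was 0.0137% to 0.0537% of the miRNA counts. miR-181a-5p led with 8531 counts over the 25 libraries, which placed it 123rd of the 562 rows. It was followed by miR-181d-5p with 2651 counts, miR-181b-5p with 1588 and miR-181c-5p with 744. Then came miR-181a-1-3p with 657 and miR-181c-3p with 544. These 6 strands passed edgeR's filter on low counts, which kept 317 miRNAs. The remaining 3 did not pass and were not tested in the main fit. miR-181a-2-3p had 46 counts in all and stood at 0 in 12 libraries, miR-181b-1-3p had 26 and stood at 0 in 15, and miR-181d-3p had 4 and stood at 0 in 23. The smallest count above 0 in the table was 2, so a 0 can hide a single read, and a count of 3, the limit that a 0 allows, corresponded to 0.937 to 2.91 CPM before TMM scaling.

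The upper part of this order was the same in almost every library. miR-181a-5p exceeded each of the other tested strands in 25 of 25 libraries, and miR-181d-5p exceeded miR-181b-5p in 24 of 25. miR-181b-5p exceeded miR-181c-5p in 23 of 25. Below that the order was not settled, since miR-181c-5p exceeded miR-181a-1-3p in 14 libraries and was exceeded by it in 9, and miR-181c-5p exceeded miR-181c-3p in 17 and was exceeded by it in 7. Strands were compared here as raw counts within a library, their lengths being 19 to 23 bases.

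**Figure D1:**
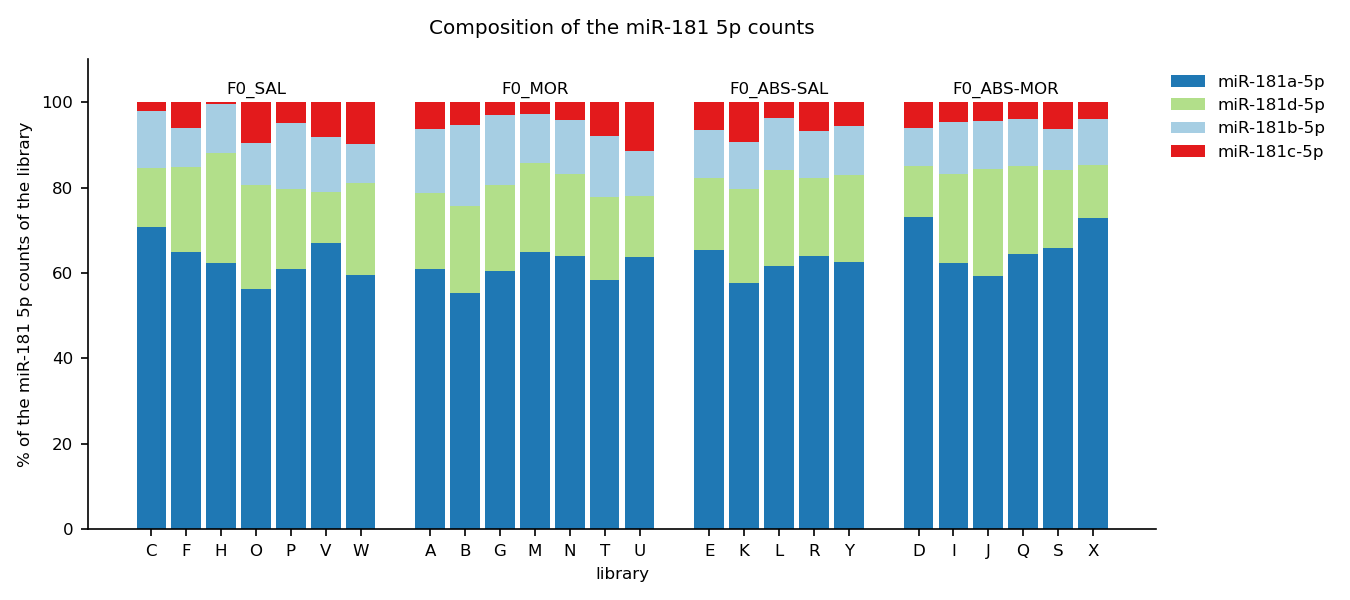
Share of each 5p strand in the miR-181 5p counts of a library (y axis, percent), 1 bar per library, grouped by treatment and timepoint (x axis, letters of the libraries). miR-181a-5p takes 55.4% to 73.0% in all 25 libraries, and miR-181c-5p is nearly absent in library H of F0_SAL, with 0.499%.

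Within the 5p counts, miR-181a-5p held 63.1% ± 4.57 (SD, n = 25), miR-181d-5p 19.1% ± 3.86, miR-181b-5p 12.04% ± 2.45 and miR-181c-5p 5.74% ± 2.61. By group, miR-181a-5p held 63.1% ± 4.91 (SD, n = 7) of the 5p counts among the F0_SAL libraries and 61.1% ± 3.41 (SD, n = 7) among those of F0_MOR. After abstinence it held 62.3% ± 2.90 (SD, n = 5) in saline and 66.3% ± 5.63 (SD, n = 6) in morphine males. These group means lay within the spread of the libraries. The share of miR-181c-5p varied the most relative to its size, from 0.499% in library H of F0_SAL to 11.4% in library U of F0_MOR.

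The adjacent hairpins Mir181c and Mir181d differed in which arm was found. From Mir181d, 2651 counts of the 5p strand stood against 4 of the 3p strand, so that 99.8% of the counts were 5p (exact 95% binomial interval 99.6% to 99.96%). From Mir181c, its neighbour, 744 counts of the 5p strand stood against 544 of the 3p strand, or 57.8% (55.0% to 60.5%). With the counts of a group summed, the share of the Mir181c 5p arm was lowest in F0_ABS-SAL, at 56.3% (51.5% to 61.0%), and highest in F0_MOR, at 59.2% (52.7% to 65.4%), so that the group intervals overlapped. Among single libraries it ranged from 20% in library H, with 2 counts of 5p and 8 of 3p, to 100% in library Q of F0_ABS-MOR, with 23 counts of 5p and 0 of 3p. miR-181b-5p stood at 1588 counts against 26 for miR-181b-1-3p, but the Mir181b2 hairpin holds the same 5p sequence, so that the 5p counts may come from both genes and give no arm share for Mir181b1. The intervals cover counting error only, since reads without molecular identifiers are not independent molecules. Counts of miR-181d-5p may also include reads of miR-181b-5p exchanged in the alignment, and the part of this in the Mir181d share was not tested.

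The 2 genes of miR-181a-5p yield the same 5p strand but different 3p strands. Of the 3p counts, 657 were miR-181a-1-3p, the strand of Mir181a-1 on chromosome 13, and 46 were miR-181a-2-3p, the strand of Mir181a2 on chromosome 3. The former made up 93.5% of the 2 (91.4% to 95.2%). It was the higher of them in 24 of 25 libraries, and both were equal in the other. With a group's counts summed, its share was 86.1% (79.4% to 91.3%) in F0_MOR and 88.8% (81.6% to 93.9%) in F0_SAL, and 96.7% (93.3% to 98.7%) in F0_ABS-SAL and 97.4% (94.4% to 99.0%) in F0_ABS-MOR. These shares rest on 6 to 20 counts of miR-181a-2-3p per group, 20 of which in F0_MOR came from libraries A and N alone, and were not tested between groups.

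The first comparison asked whether the family differed between the timepoints in saline males, where morphine played no part. Levels are given as TMM-scaled CPM, and log2 fold changes come from 1 edgeR model of the 4 groups. To be called, a miRNA had to differ by more than 0.58 on the log2 scale, up or down, at a Benjamini-Hochberg adjusted p below 0.1. Only miR-181c-5p, the least abundant of the 5p strands, was called. In F0_SAL its level had a lowest value of 1.70, a median of 13.1 and a highest value of 18.49 CPM. In F0_ABS-SAL it was 18.51 in library E, 26.6 in K, 15.1 in L, 27.1 in R and 12.5 in Y. Libraries K and R lay clearly above every F0_SAL library and E barely so, Y lay below the F0_SAL median, and the groups overlapped. The log2 fold change was 0.75 (SE 0.35), with an edgeR adjusted p of 0.0962.

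**Figure D2:**
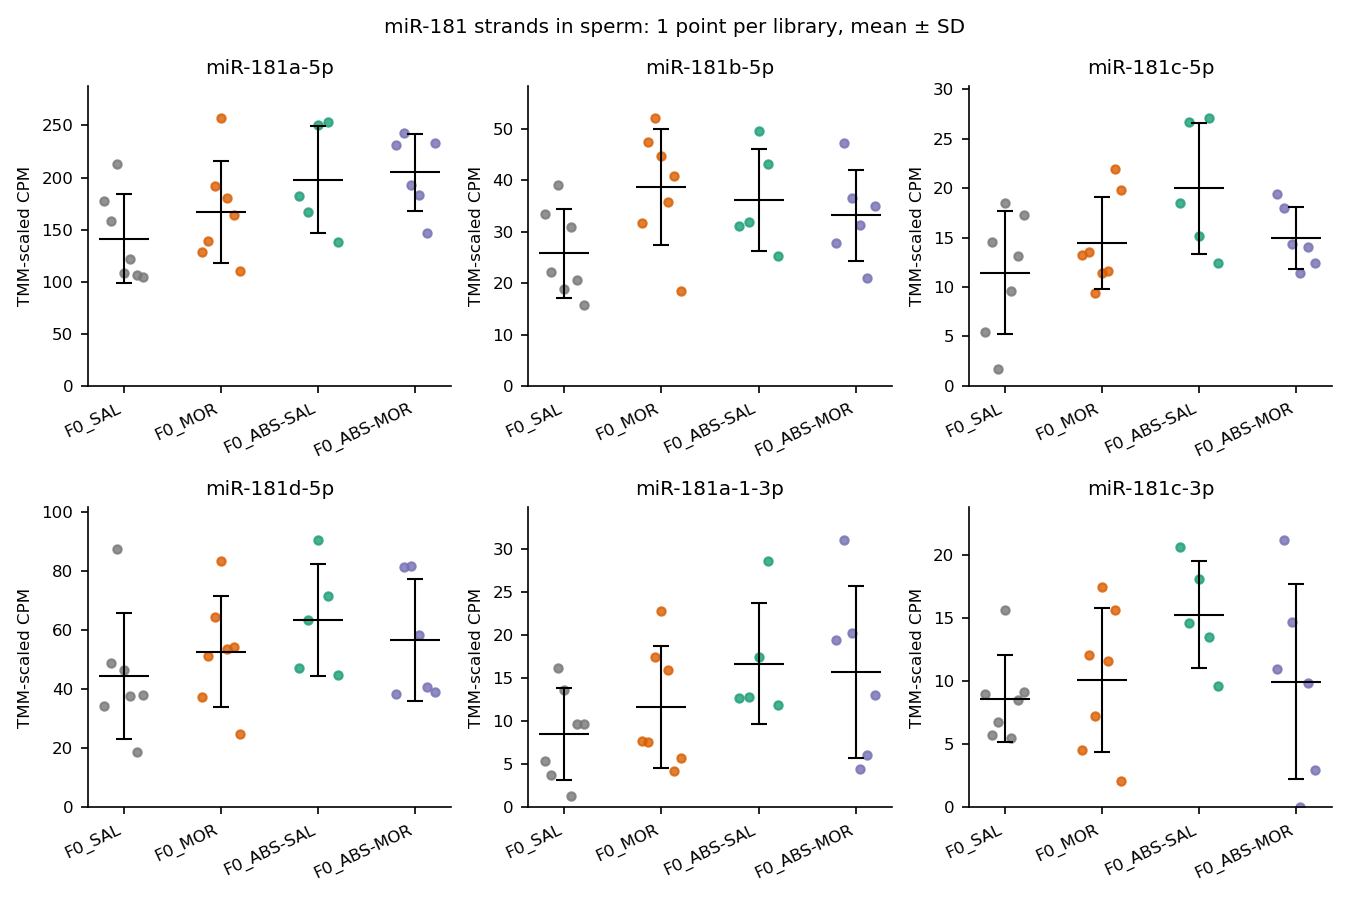
Levels of the 6 tested strands (y axis, TMM-scaled CPM, from 0) in the 4 groups (x axis), 1 point per library, with the mean and SD as bars. For each strand the 4 groups overlap; mean miR-181c-5p is 11.5 CPM in F0_SAL and 19.96 CPM in F0_ABS-SAL.

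This call was easily lost. It did not hold in 10 of the 12 fits that left out a library of either group, with log2 fold changes of 0.51 without library H of F0_SAL, the library with 2 counts, and 0.56 without library R of F0_ABS-SAL. With DESeq2 the log2 fold change was 0.70 and none of the 6 strands was called. With limma-voom it was 0.64 and not called, and miR-181a-1-3p was called in its place at 1.05. Over the alternatives that kept all libraries, the adjusted p of miR-181c-5p ranged from 0.00668 to 0.196.

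The other tested strands had higher means in F0_ABS-SAL without being called. miR-181a-5p ranged from 104.3 to 213 CPM in F0_SAL, with a median of 122. In F0_ABS-SAL it was 182 in library E, 167 in K, 250 in L, 253 in R and 138 in Y, all above the F0_SAL median, and L and R above every F0_SAL library. Its log2 fold change of 0.49 (SE 0.22) had an edgeR adjusted p of 0.0916 but did not reach the fold threshold. miR-181d-5p had a log2 fold change of 0.52 (SE 0.30, edgeR adjusted p = 0.183) and miR-181b-5p one of 0.50 (SE 0.27, edgeR adjusted p = 0.145). Summed as 1 feature, these 2 gave 0.50 (SE 0.26, edgeR adjusted p = 0.133).

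Of the 3p strands, miR-181a-1-3p ranged from 1.37 to 16.2 CPM in F0_SAL, with a median of 9.66. It was 12.7 in library E, 12.8 in K, 17.4 in L, 28.6 in R and 11.8 in Y of F0_ABS-SAL. Every F0_ABS-SAL library was above the F0_SAL median, and the groups overlapped. The log2 fold change was 0.94 (SE 0.47, edgeR adjusted p = 0.127). miR-181c-3p, the partner arm of the called strand, had a log2 fold change of 0.79 (SE 0.50, edgeR adjusted p = 0.222).

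1 of the 6 tested strands was thus called higher, where 22.4% of all 317 tested miRNAs were. The share among the strands was near that of all miRNAs. The median log2 fold change was 0.63 over the 6 strands and 0.00 over all tested miRNAs, and 6 of the 6 strands were above 0, as were 50.2% of all tested miRNAs. At an unadjusted edgeR p under 0.05 there were 2 strands and 136 of 317 miRNAs. The strands share genes and libraries and are not independent of each other.

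How many strands were called depended on how the libraries were scaled to each other. rno-miR-34c-5p, a germ cell miRNA, took 19.6% to 53.6% of the miRNA counts, and TMM factors ran from 0.701 to 0.966 in F0_SAL and from 1.02 to 1.21 in F0_ABS-SAL. Scaled by total count alone, all 6 strands were called, with log2 fold changes of 0.83 to 1.34, but the median of all tested miRNAs then moved to 0.39. Scaled by 1 TMM factor from the miRNA and ncRNA tables joined, 4 were called and miR-181c-5p was not among them, with a median over all tested miRNAs of 0.11. Scaled by DESeq2 size factors, 0 were called. Relative to the median of all tested miRNAs, miR-181c-5p lay 0.65 to 0.79 higher and miR-181a-5p 0.44 to 0.53 higher under the 5 scalings.

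**Figure D3:**
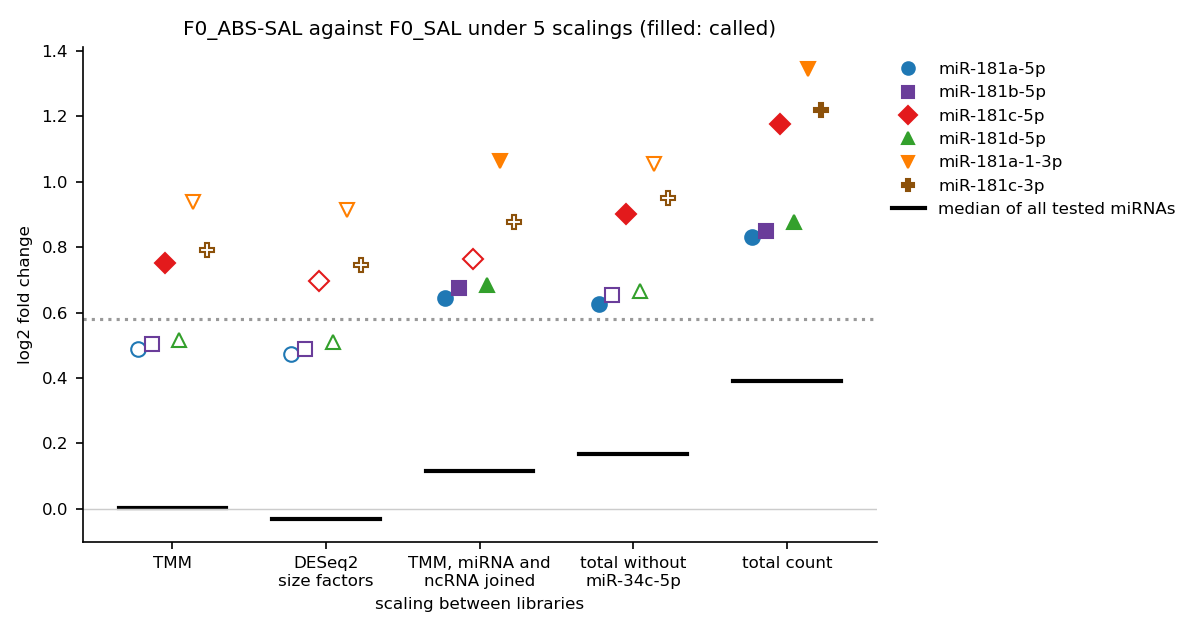
Log2 fold change of F0_ABS-SAL against F0_SAL (y axis) for the 6 tested strands under 5 ways of scaling the libraries (x axis). Filled symbols were called, black lines are the median of all tested miRNAs and the dotted line is the threshold of 0.58. All 6 strands are highest with total count alone, where the median is highest too and 6 are called. With TMM 1 is called, with DESeq2 size factors 0, with the joined TMM factor 4 and with total count without rno-miR-34c-5p 2.

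The miRNAs of the Mir23a cluster, which lies near Mir181c and Mir181d, were examined as the neighbouring group. Of its 5 tested strands, 4 were called higher in F0_ABS-SAL than in F0_SAL, where 22.4% of all tested miRNAs were. The median log2 fold change of the 5 was 0.83, and miR-27a-3p, among the 4 called, had 1.11 (SE 0.22, edgeR adjusted p = 0.000897). The study names miR-27a-3p from these same samples, so that this list is not independent evidence of its direction.

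Marker miRNAs of other cell types also differed between these saline groups. The summed level of the endothelial list was 546 to 783 CPM in F0_SAL and 708 to 2821 CPM in F0_ABS-SAL, with 2 of 2 strands called higher. Both are arms of miR-126a, and the study names miR-126a-3p from these same samples, so that this list is not independent evidence of its direction. The muscle list had 3 of 4 tested strands called higher, the epithelial list 4 of 8, the leukocyte list 1 of 7 and the erythroid list 0 of 3. Of all tested miRNAs, 22.4% were called higher and 10.7% lower. The male germ cell list had 4 of 12 called lower. Its summed level was 422956 to 767728 CPM in F0_SAL and 287072 to 411504 CPM in F0_ABS-SAL. These ranges were apart after TMM scaling, with factors lower in F0_SAL than in F0_ABS-SAL. Without scaling, rno-miR-34c-5p, which led the list, overlapped between the groups. It took 41.1% of the miRNA counts in library K of F0_ABS-SAL, against 40.2% in H and 35.2% in C of F0_SAL. The summed level of the list was not compared under other scalings. Of the 6 muscle markers, miR-133b-3p was at 0 in 21 of the 25 libraries and miR-206-3p in 11, miR-1-3p and miR-133a-3p in 1 each, and miR-143-3p and miR-145-5p in 0. The part of these cells in the miR-181 levels was not tested, and in bulk sperm RNA more cells of a type and more RNA per cell cannot be told apart.

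The same question in morphine males gave no call. miR-181a-5p was 111 to 257 CPM in F0_MOR, with a median of 164, and 147 to 243 CPM in F0_ABS-MOR, with a median of 212. 5 of the 6 F0_ABS-MOR libraries lay above the F0_MOR median and none above its highest library. The log2 fold change was 0.29 (SE 0.21, edgeR adjusted p = 0.354). miR-181c-5p was 9.41 to 21.96 CPM in F0_MOR and 11.5 to 19.4 CPM in F0_ABS-MOR, with a log2 fold change of 0.07 (SE 0.34, edgeR adjusted p = 0.906).

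For miR-181b-5p the estimate was below 0, at -0.22 (SE 0.25, edgeR adjusted p = 0.588), and for miR-181d-5p, miR-181a-1-3p and miR-181c-3p it was 0.11, 0.43 and 0.03. edgeR called 0 of the 6 strands, where 21.1% of all tested miRNAs were called in either direction and 11% were called higher. At an unadjusted p under 0.05 the number was also 0 of 6, beside 103 of 317 miRNAs, and DESeq2 and limma-voom called 0. The median over the strands was 0.09 and over all tested miRNAs 0.00. In this comparison 2 of the 5 tested strands of the Mir23a cluster, 2 of 2 endothelial, 2 of 8 epithelial, 1 of 4 muscle and 1 of 7 leukocyte strands were called higher. The endothelial strands are again the 2 arms of miR-126a, and the study names miR-126a-3p and miR-27a-3p in this comparison too. 3 of 3 erythroid strands and 1 leukocyte strand were called lower, where 10.1% of all tested miRNAs were, and 0 of 12 germ cell strands passed. The leukocyte strand called lower was rno-miR-150-5p (log2 fold change -0.65, SE 0.27, edgeR adjusted p = 0.0845). The study reports it as differentially expressed between these same groups, so that its call is not independent evidence. The part of these marker strands in the miR-181 levels was not tested.

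**Figure D4:**
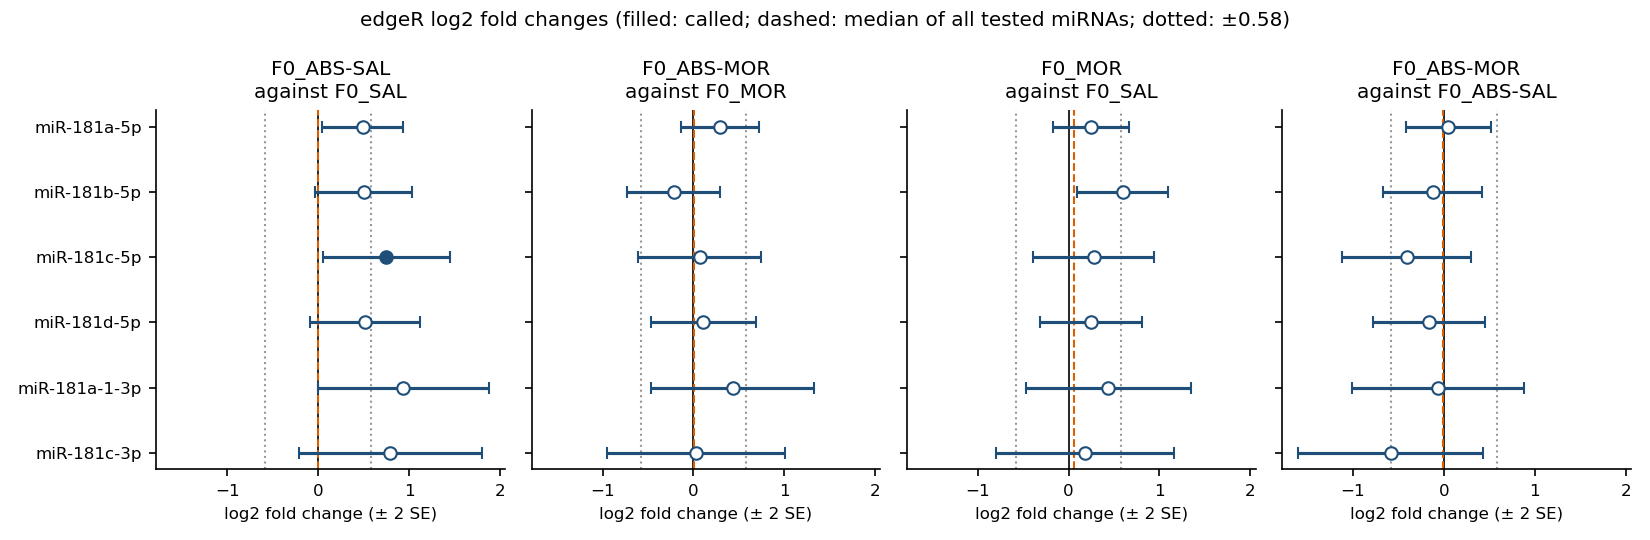
edgeR log2 fold changes (x axis, bars are ± 2 SE) of the 6 tested strands (y axis) in the 4 comparisons. Filled points were called, dashed lines are the median of all tested miRNAs and dotted lines the thresholds of ±0.58; only miR-181c-5p in F0_ABS-SAL against F0_SAL is filled.

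Whether morphine exposure went with a difference in the family was tested first at the end of self-administration. miR-181b-5p had the widest difference among the strands. Its level was 15.8 to 39.2 CPM in F0_SAL, with a median of 22.2, and 18.4 to 52.1 CPM in F0_MOR, with a median of 40.8. 6 of the 7 F0_MOR libraries lay above the F0_SAL median and 4 above every F0_SAL library, and library U, the lowest of F0_MOR, lay under the F0_SAL median. The log2 fold change was 0.60 (SE 0.25), with an unadjusted edgeR p of 0.0237 and an adjusted p of 0.547. Fitted together with miR-181d-5p as 1 feature it was 0.32 (SE 0.24, edgeR adjusted p = 0.698).

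The remaining strands had log2 fold changes of 0.18 to 0.44 in F0_MOR against F0_SAL, with edgeR adjusted p of 0.771 to 0.924. miR-181c-5p, for example, was 9.41 to 21.96 CPM in F0_MOR and 1.70 to 18.5 CPM in F0_SAL. edgeR called 0 of the 6 strands and 0% of all tested miRNAs, and 1 strand and 23 miRNAs had an unadjusted p under 0.05. DESeq2 and limma-voom called 0 strands of the family, and edgeR called no strand of the marker lists. The study, using DESeq2, reports rno-miR-150-5p of the leukocyte list as differentially expressed in this comparison. Here, with edgeR in place of DESeq2, its log2 fold change was 0.92 (SE 0.26, edgeR adjusted p = 0.311). The study also measured it by qPCR, which it describes as appearing to replicate the sequencing result. Intervals of ± 2 SE reached from -0.17 to 0.66 for miR-181a-5p and from -0.32 to 0.81 for miR-181d-5p on the log2 scale.

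After 90 days of abstinence, F0_ABS-MOR and F0_ABS-SAL gave log2 fold changes of -0.59 to 0.05. The lowest was that of miR-181c-3p, which was 10.9 in library D, 21.2 in I, 14.7 in J, 0 in Q, 9.85 in S and 2.96 in X of F0_ABS-MOR. In F0_ABS-SAL it was 20.6 in library E, 14.6 in K, 18.1 in L, 13.5 in R and 9.59 CPM in Y. Libraries Q and X stood low, library I stood above every F0_ABS-SAL library, and the groups overlapped (SE 0.51, edgeR adjusted p = 1.00). miR-181c-5p had -0.41 (SE 0.35) and miR-181a-5p 0.05 (SE 0.23), both at an adjusted p of 1.00.

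edgeR called 0 of the 6 strands and 0% of all tested miRNAs in this comparison. No strand and 4 of 317 miRNAs had an unadjusted p under 0.05, and DESeq2 and limma-voom called 0 strands. Intervals of ± 2 SE were -0.41 to 0.52 for miR-181a-5p and -1.12 to 0.30 for miR-181c-5p, wider for the less abundant strand.

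The difference between the treatments was set against the timepoints in a test of the interaction, which is also the test of whether the timepoint difference differed between saline and morphine males. The 6 estimates were 0.20 to 0.76 on the log2 scale, the largest for miR-181c-3p (SE 0.71) and the next for miR-181b-5p at 0.72 (SE 0.37), each with an edgeR adjusted p of 0.953. The median was 0.59 over the strands and 0.09 over all tested miRNAs. edgeR called 0 of 6 strands and 0% of all tested miRNAs, 0 strands and 10 miRNAs had an unadjusted p under 0.05, and DESeq2 and limma-voom called 0. The timepoint difference of miR-181c-5p was thus not shown to differ between saline and morphine males.

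Ratios between strands of 1 library do not depend on the scaling, and 3 ratios were each set side by side in the 4 comparisons, which made 12 exact permutation tests, all two-sided. The ratio of miR-181a-5p to miR-181b-5p, whose genes form shared pairs, had the lowest p. At the end of self-administration its geometric mean was 5.42 in saline and 4.31 in morphine males, and after abstinence 5.43 and 6.20. On the log2 scale F0_MOR libraries lay between 1.54 and 2.54 (mean 2.11 ± 0.36, SD, n = 7) and F0_ABS-MOR libraries between 2.35 and 3.04 (2.63 ± 0.26, SD, n = 6), so that the groups overlapped. The difference was 0.53, with an exact permutation p of 0.0140 and a value of 0.168 after adjustment over the 12 tests.

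In F0_MOR against F0_SAL that ratio differed by -0.33 (exact permutation p = 0.0816, adjusted 0.450). The ratio of miR-181c-5p to miR-181d-5p, 2 strands of adjacent hairpins, had geometric means of 0.247 in saline and 0.289 in morphine males without abstinence, and of 0.315 and 0.280 after it. None of its 4 comparisons had an adjusted exact permutation p below 0.936. The 4 comparisons of miR-181a-5p with miR-181c-5p had adjusted exact permutation p of 0.450 or more.

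Between libraries of the same group, miR-181a-5p, miR-181b-5p and miR-181d-5p varied in the same direction, and miR-181c-5p had negative correlations with each of them. After the mean of each group was removed, log2 CPM of miR-181a-5p and miR-181b-5p went up and down together over the 25 libraries (Pearson r = 0.78, Spearman rho = 0.80, adjusted permutation p = 0.000120 and 0.000300 over the 6 pairs of 5p strands). miR-181d-5p went along with both, although it comes from another chromosome. Its r was 0.67 with miR-181a-5p (rho = 0.66) and 0.70 with miR-181b-5p (rho = 0.67), each with an adjusted permutation p of 0.00128 for r and 0.00156 for rho. Counts of miR-181b-5p and miR-181d-5p may have been exchanged in the alignment, and the part of this in their r was not tested. Without the 2 libraries farthest from the median of the first strand of each pair, r was 0.77, 0.54 and 0.56.

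miR-181c-5p was set against miR-181d-5p, the strand of the adjacent hairpin, without a relation that passed. Their r was -0.36 and rho -0.12 (adjusted permutation p = 0.146 and 0.576), and r was -0.04 without library H. With miR-181b-5p the r of miR-181c-5p was -0.51 (adjusted permutation p = 0.0207) and rho -0.44 (adjusted permutation p = 0.0641). With miR-181a-5p the r was -0.46 (adjusted permutation p = 0.0475) and rho -0.36 (adjusted permutation p = 0.136). Both relations weakened to r of -0.40 and -0.26 when library H was left out, and to -0.37 and -0.25 without the 2 libraries farthest from the median, and so rested in part on those libraries. Library H held 250 counts of miR-181a-5p, 46 of miR-181b-5p and 103 of miR-181d-5p beside its 2 of miR-181c-5p.

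**Figure D5:**
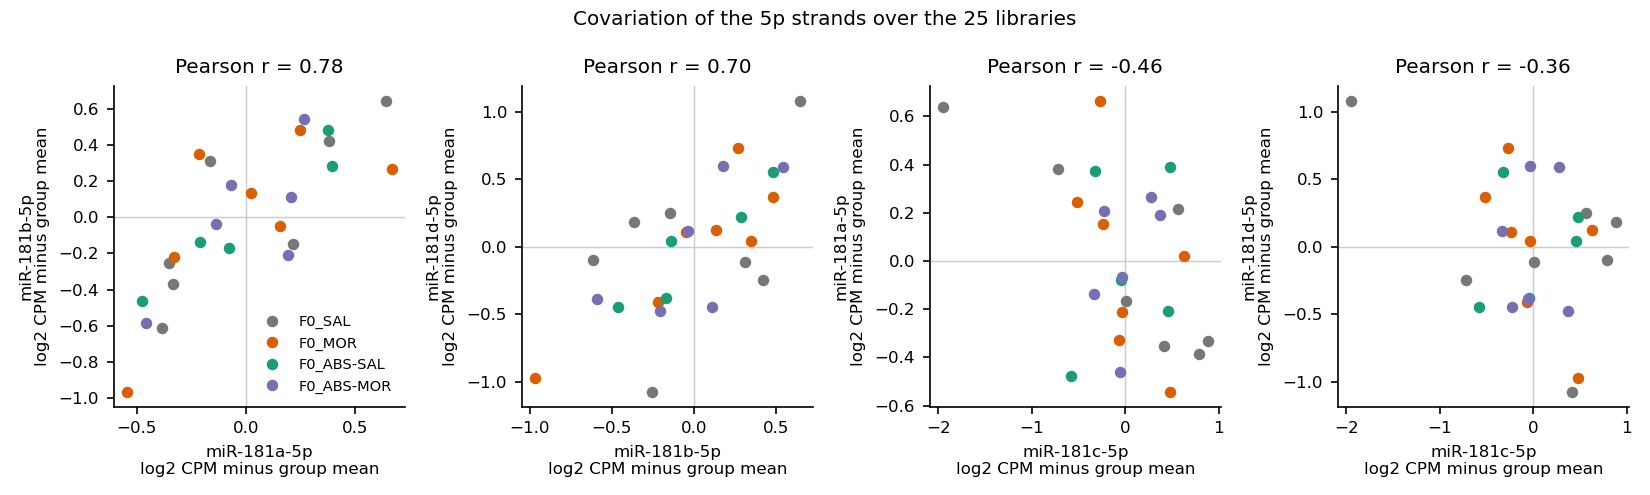
Log2 CPM minus the group mean of 1 strand (x axis) against another (y axis), 1 point per library, coloured by group, in 4 pairs of 5p strands. miR-181a-5p, miR-181b-5p and miR-181d-5p vary together (r = 0.78 and 0.70 in the first 2 panels), and miR-181c-5p has negative r with miR-181a-5p and miR-181d-5p (-0.46 and -0.36), with library H of F0_SAL at the far left of the last 2 panels.

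The miRNAs outside the family whose levels were most like each 5p strand, among 311 tested miRNAs and over the same 25 group-centred libraries, are given as a description, since the libraries share their depth and scaling. Closest to miR-181a-5p were miR-183-5p (r = 0.80), miR-182 (r = 0.78) and miR-125b-2-3p (r = 0.77). Closest to miR-181b-5p were miR-205 (r = 0.73), miR-328a-3p (r = 0.72) and miR-183-5p (r = 0.71). For miR-181d-5p they were miR-204-5p (r = 0.79), miR-10b-5p (r = 0.77) and miR-30a-3p (r = 0.77). For miR-181c-5p they were miR-29a-3p (r = 0.72), miR-742-3p (r = 0.66) and miR-362-3p (r = 0.62). Only miR-183-5p was among the closest of 2 strands, miR-181a-5p and miR-181b-5p. miR-205 belongs to the epithelial list, whose summed level had an r of 0.39 with miR-181b-5p (adjusted permutation p = 0.345 over 24 relations).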

How the data were processed

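Small RNA was sequenced from swim-up purified cauda sperm. The authors deposited raw read counts per mature miRNA, made with sRNAbench, which trimmed adaptors, aligned forward reads to the rat genome (rn6) with a mismatch allowed and annotated them to miRBase, and a second table of counts per Ensembl ncRNA, used here only for 1 scaling. The count columns name REG or TO and the drug, and were matched to the 4 groups because the group sizes fit in no other way. 0 columns were left without a group. Columns carry no replicate number.

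The whole miRNA table was fitted with edgeR 4.0.16 in R 4.3.3 (quasi-likelihood test, TMM, its filter on low counts, 1 model of the 4 groups), with SE as the size of the log2 fold change over the root of F, and p-values were Benjamini-Hochberg adjusted over the 317 miRNAs tested. DESeq2 1.42.0 and limma 3.58.1 (voom with sample weights) were alternatives, as were other scalings, filters and thresholds and each library left out. Log2 CPM used a prior count of 2 and ratios a pseudocount of 1, and permutation tests used SciPy 1.17.1, with 100000 permutations within groups for correlations. The fit was tested on simulated data. Strands and gene coordinates were read from RefSeq tables of GRCr8. The miRNAs named are all rows of the family, the neighbouring Mir23a cluster, marker lists and, for each 5p strand, the 3 miRNAs most like it. Members and lists were chosen with earlier results of these data known.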

Additional observations from a re-analysis of the deposited data

Results flagged for a closer look

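Of 40 groups of values checked for a library that stands apart (levels of the 6 tested strands, 3 ratios and the family's share of counts, in each of the 4 groups), 1 met the criterion of Dixon's test, where chance alone gives about 1 in 20 groups. The log2 ratio of miR-181c-5p to miR-181d-5p was -5.12 in library H of F0_SAL, with -2.48 for the next library of that group. The ratio rested on 2 counts of miR-181c-5p and 103 of miR-181d-5p. The total miRNA count of library H, 1244272, was within the range of the other libraries.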

How the results depend on the processing

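In F0_ABS-SAL against F0_SAL, where 1 of the 6 strands was called, the number was 0 with DESeq2, with DESeq2 size factors, without a filter and at an adjusted p under 0.05. It was 2 with total count without rno-miR-34c-5p, with only the 2 groups in the model and with no fold threshold, 3 with log2 total count as covariate, 4 with the joined TMM factor and 6 with total count alone. It ranged from 0 to 2 when each library was left out. With at least 10 counts in every library it was 1, miR-181b-5p. In the other comparisons and the interaction it was 0 under every alternative run. Each strand kept its direction in F0_ABS-SAL against F0_SAL under every alternative.

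Estimates near 0 changed sign elsewhere, and the cause was not tested. With limma-voom, F0_ABS-MOR against F0_MOR gave -0.053 for miR-181c-3p, F0_MOR against F0_SAL -0.016 for miR-181c-3p, F0_ABS-MOR against F0_ABS-SAL 0.15 for miR-181a-1-3p and 0.032 for miR-181b-5p, and the interaction -0.023 for miR-181a-5p. Total count without rno-miR-34c-5p gave 0.060 for miR-181a-1-3p and the joined factor -0.10 for miR-181a-5p, both in F0_ABS-MOR against F0_ABS-SAL. With log2 total count as covariate, F0_ABS-MOR against F0_MOR gave 0.011 for miR-181b-5p, -0.23 for miR-181c-3p and -0.16 for miR-181c-5p, and F0_ABS-MOR against F0_ABS-SAL -0.020 for miR-181a-5p. Summed with miR-181b-5p, an alternative chosen after seeing the data, miR-181d-5p had -0.0047 in F0_ABS-MOR against F0_MOR.

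With each library left out, F0_ABS-MOR against F0_MOR ran from -0.33 to 0.32 for miR-181c-3p, -0.028 to 0.19 for miR-181c-5p and -0.042 to 0.25 for miR-181d-5p. F0_MOR against F0_SAL ran from -0.065 to 0.33 for miR-181c-3p. F0_ABS-MOR against F0_ABS-SAL ran from -0.055 to 0.16 for miR-181a-5p, -0.24 to 0.029 for miR-181b-5p, -0.31 to 0.0052 for miR-181d-5p and -0.36 to 0.18 for miR-181a-1-3p. The ratio of miR-181a-5p to miR-181b-5p ran from -0.080 to 0.061 in F0_ABS-SAL against F0_SAL, where it was -0.0071 with a pseudocount of 0.5. The ratio of miR-181c-5p to miR-181d-5p ran from -0.16 to 0.61 in F0_ABS-SAL against F0_SAL, -0.22 to 0.20 in F0_ABS-MOR against F0_MOR and -0.29 to 0.48 in F0_MOR against F0_SAL. That of miR-181a-5p to miR-181c-5p ran from -0.64 to 0.0055 and from -0.47 to 0.18 in F0_ABS-SAL and F0_MOR against F0_SAL. No ratio passed under any alternative. Of the 6 pairs of 5p strands, 5 correlated at an adjusted permutation p under 0.05, and 3 with total count alone, when those of miR-181c-5p with miR-181a-5p (r = -0.40) and miR-181b-5p (r = -0.43) did not pass. With DESeq2 size factors the pair of miR-181c-5p and miR-181a-5p did not pass either (r = -0.37, adjusted permutation p = 0.107).

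No paired analysis was possible because the columns carry no replicate numbers, and the study describes no pairing between males of different groups. It reports that males were euthanized before sperm was taken, so that samples of different groups came from different males. The tested 3p strands and miR-181c-5p rested on 0 to 76 counts per library, and the part of depth, group size and spread between males in their wide intervals was not tested.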

Other observations

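The 4 strands of the 5p arms were also set against the summed levels of the 6 marker lists over the 25 group-centred libraries, a comparison added after the data had been seen. None of the 24 relations passed, with adjusted permutation p of 0.206 or more for Pearson's r and 0.238 or more for Spearman's rho. The lowest p was that of miR-181d-5p with the erythroid list (r = -0.54, permutation p = 0.0118, rho = -0.43, permutation p = 0.0470, r = -0.48 without the 2 libraries farthest from the median). miR-181a-5p had r of 0.46 with the epithelial list (permutation p = 0.0240, rho = 0.43, permutation p = 0.0404, r = 0.39 without those 2). miR-181d-5p had r of 0.38 with the endothelial list (permutation p = 0.0258, rho = 0.42, permutation p = 0.0457, r = 0.32 without those 2). With the leukocyte list, r was -0.05 for miR-181a-5p, -0.09 for miR-181b-5p, -0.06 for miR-181c-5p and -0.33 for miR-181d-5p.

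miR-181a-2-3p stood at 12 counts in library A and 8 in library N of F0_MOR and at 0 in the other 5 libraries of that group. This strand was not tested in the main edgeR fit. The fit without a filter on low counts, which held it too, called no strand of the family.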
